A study of Mus musculus with 10 samples.

Results

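TRBD1 and TRBD2 are the diversity (D) segments of the mouse T cell receptor β locus. They were examined in the CDR3 (complementarity-determining region 3, the stretch of the receptor that spans the joins between segments) of 9 T cell receptor β (TRB) libraries. Of 29481 clonotypes, each a distinct TRBV, TRBJ and nucleotide CDR3 in 1 library, 20464 had a D segment named in the deposited tables. TRBD1 was named in 11882, TRBD2 in 8582, and the remaining 9017 formed the unassigned class.

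The study concerned the αβ T cells found in the skin of mice without γδ T cells. Epidermal (3 libraries), dermal (2 libraries), CD103+ dermal, CD103hi dermal and peripheral lymph node T cells (1 library each) came from B6.129P2-Tcrdtm1Mom/J (Tcrd-/-) mice, which lack the receptor δ chain, and 1 dermal library came from C57BL/6-N/Crl (WT) mice. Skin was ear skin. Dermal and lymph node cells were sorted as TCRβ+, with CD103 as an added gate in the CD103+ and CD103hi sorts (CD103 is the integrin αE chain), and the epidermal cells were sorted as CD3hi TCRβhi and carry the name of the dendritic epidermal T cell population in the labels. Each library was a pool of 5 to 18 animals, with no agent, time point or age in the labels. The amplicons hold receptor transcripts only, so no other marker checks the sorted populations, and the Tcrd gene was not measured.

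A β chain is assembled by the RAG recombinase in 2 ordered steps, D to J and then V to DJ. At each join, nucleases can trim the segment ends, opened hairpins can leave short palindromic bases, and terminal transferase can add bases that no segment encodes. TRBD1 lies upstream of both J clusters and can join either, whereas TRBD2 lies downstream of the TRBJ1 cluster and upstream of TRBJ2. Both D segments can be read in all 3 frames, so the frame sets which residues the D contributes to the centre of the CDR3.

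The germline segments are shown because every measure below is counted against them. In the GENCODE M21 annotation (GRCm38), Trbd1 occupies chromosome 6 from 41533201 to 41533212 and Trbd2 occupies chromosome 6 from 41542163 to 41542176, both on the plus strand. Each is a D gene segment of its own, and the annotation gives no intron or UTR inside it. Trbd1 ends 652 bases before the first TRBJ1 segment, and Trbd2 starts 6476 bases after the last TRBJ1 segment. Capitals are not used in these lines, which give the whole segments from 5′ to 3′.
TRBD1: gggacagggggc
TRBD2: gggactgggggggc

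TRBD1 has 12 bases and TRBD2 has 14. Both begin with the same 5 bases, and 6 bases (gggggc) form the longest stretch found in both. Frame 1 is used here for the reading in which the first germline base opens a codon. In that frame both segments read GTGG. In frame 2 TRBD1 reads GQG and TRBD2 reads GLGG. In frame 3 TRBD1 reads DRG and TRBD2 reads DWGG, the reading that holds a tryptophan.

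The leading lymph node clonotype of each D and J cluster shows how these segments sit in a CDR3, with the bases the deposited positions give to the D in capitals.
TRBD1 with TRBJ1-1 (TRBV13-1): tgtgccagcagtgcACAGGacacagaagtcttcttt
TRBD1 with TRBJ2-5 (TRBV1): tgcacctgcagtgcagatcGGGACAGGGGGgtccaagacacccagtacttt
TRBD2 with TRBJ1-3 (TRBV5): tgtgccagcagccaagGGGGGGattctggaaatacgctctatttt
TRBD2 with TRBJ2-7 (TRBV3): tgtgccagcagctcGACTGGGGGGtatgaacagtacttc

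The next sequences had the most reads among the frame 3 TRBD2 clonotypes of epidermal A, epidermal B and CD103hi. They are shown because that frame is the pattern described further on, and they were chosen after the values had been seen. With any frame allowed, the leading TRBD2 clonotype with TRBJ2 was in frame 1 in epidermal A (4.94% of reads). It was in frame 2 in CD103hi (1.74%), and in frame 3 in epidermal B (2.17%) and dermal Tcrd-/- B (8.44%).
Epidermal Tcrd-/- A (TRBV12-2, TRBJ2-1): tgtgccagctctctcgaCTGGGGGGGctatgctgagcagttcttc
Epidermal Tcrd-/- B (TRBV17, TRBJ2-7): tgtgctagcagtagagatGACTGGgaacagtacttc
Dermal CD103hi Tcrd-/- (TRBV12-2, TRBJ2-1): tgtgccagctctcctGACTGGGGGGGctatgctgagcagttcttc
Dermal CD103hi Tcrd-/- (TRBV5, TRBJ2-3): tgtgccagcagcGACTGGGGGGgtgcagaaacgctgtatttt
These clonotypes made up 4.80%, 2.17%, 1.55% and 1.47% of their libraries' reads. The epidermal A clonotype and the first CD103hi clonotype share TRBV12-2 and TRBJ2-1, and the other two use other TRBV and TRBJ segments.

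The libraries held between 31823 and 189162 reads. The lymph node library listed 26693 clonotypes, the WT dermal library 702, dermal Tcrd-/- A and B 235 and 77, CD103+ 492, CD103hi 457, and epidermal A, B and C 318, 435 and 72. The lymph node library therefore sets most totals, and results are given per library. Shares count each distinct clonotype once and carry 95% Wilson intervals where printed. These intervals cover counting error only, because the reads carry no molecular identifiers. The labels do not state whether pools of 1 group had separate animals, and a p-value here covers library-to-library spread, which may be technical. By their names the libraries form 3 sets. Epidermal A shares a set with dermal A and the lymph node, and epidermal C shares a set with dermal B and WT dermis. Epidermal B is in the set of both CD103 sorts. The within-library comparisons below count each library as independent, and libraries of 1 set may not be.

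The D calls have limits that touch every result. No listed D stretch was shorter than 5 bases, and the longest had 22, more than either germline segment. Of all assigned stretches, 63.3% lay wholly within the germline of the named D and of no other. A further 24.0% ran past a germline end into its mirrored sequence, 6.91% held a mismatch, and 1.16% matched only the reverse complement. The last class, 4.60%, fitted both germline segments, and all 941 of those clonotypes were listed as TRBD1. Naming the D again from the longest exact match of at least 5 bases gave the same call for 79.0% of TRBD1 and 96.7% of TRBD2 clonotypes, and a tie for 14.9% of TRBD1 clonotypes. TRBD1 shares are therefore given under both rules where they matter.

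The 5 most frequent lymph node stretches of each D show how far trimming went. For TRBD1 they were caggg (5.12% of 10928 clonotypes), cagggg (4.15%), ggggg (3.68%), acaggg (3.30%) and gggaca (2.96%). For TRBD2 they were ctggggg (4.23% of 7655), ggggggg (3.75%), ctgggggg (3.46%), gggggg (3.33%) and ctgggg (3.11%). The leading TRBD1 stretch keeps only the central cag and adjoining g bases, and the TRBD2 stretches keep the g run, most of them with the ct before it.

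A D segment was named in 69.6% of lymph node clonotypes, which left 30.4% unassigned (interval 29.8 to 30.9). In WT dermis the assigned share was 75.5%, and in dermal Tcrd-/- A and B it was 77.0% and 74.0%. It was 65.7% in CD103+ and 62.8% in CD103hi cells. The epidermal libraries had 64.8%, 56.6% and 70.8%. All 3 epidermal values lay below both bulk dermal values. The epidermal mean was 64.1% ± 7.17 (SD, n = 3) and the dermal mean 75.5% ± 2.12 (SD, n = 2), a difference of -11.5 percentage points with p = 0.2 in an exact two-sided permutation test and an adjusted p of 0.56. With 3 libraries against 2, 0.2 is the smallest p the test can give, so no difference of this kind could pass 0.05. Within library sets the difference was -12.2 points (A against A) and -3.19 points (C against B), and counting CD103+ and CD103hi as dermal gave -5.82 points.

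Many unassigned clonotypes had little room between V and J. The gap between the V end and the J start was under 5 bases in 58.8% of unassigned lymph node clonotypes, 68.6% in WT dermis, 50% and 65.0% in dermal Tcrd-/- A and B, 74.6% in CD103+, 84.7% in CD103hi, and 70.5%, 89.9% and 81.0% in epidermal A, B and C. Such a gap cannot hold a stretch of the shortest listed size. The unassigned class also had shorter CDR3s in every library, with library means from 12.1 to 12.96 residues against 13.5 to 14.4 residues in the assigned class. Of the 9017 unassigned clonotypes, 0 held a match of 5 bases to either germline D in that gap.

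The unassigned class was larger beside TRBJ1. With TRBJ1 it held 38.9% of lymph node clonotypes, 34.5% in WT dermis, 36.5% and 29.4% in dermal Tcrd-/- A and B, 47.5% in CD103+, 38.0% in CD103hi, and 37.7%, 61.5% and 38.1% in epidermal A, B and C. With TRBJ2 it held 26.7% in the lymph node, 20.4% in WT dermis, 18.0% and 25.0% in dermal A and B, 28.0% in CD103+, 36.9% in CD103hi, and 34.4%, 38.7% and 25.5% in the epidermal libraries. The difference averaged 12.05 points (SD 7.70 over 9 libraries) and was positive in 9 of 9, with an adjusted p of 0.0065 in an exact sign-flip permutation test. It lay at 1.08 points in CD103hi and 22.9 points in epidermal B. Weighted by reads it was 15.9 points and no longer passed (adjusted p = 0.085, exact sign-flip permutation). By reads epidermal C went the other way (-27.5 points), and every other library stayed positive. With at least 10 reads the difference did not pass either (7.44 points, adjusted p = 0.24, exact sign-flip permutation).

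Among assigned clonotypes, TRBD1 was named in 58.8% in the lymph node (interval 58.1 to 59.5). The WT dermal share was 51.3%, and dermal Tcrd-/- A and B had 54.7% and 61.4%. CD103+ cells had 57.3% and CD103hi cells 49.8%. The epidermal libraries had 51.5%, 34.1% and 58.8%, so epidermal B stood lowest of all 9 and the other two lay among the dermal and lymph node values. From high to low the order was dermal B, epidermal C, lymph node, CD103+, dermal A, epidermal A, WT dermis, CD103hi and epidermal B. The interval of epidermal B (28.5 to 40.3) overlapped no other, while neighbours in the rest of the order had overlapping intervals. The epidermal mean of 48.1% ± 12.7 (SD, n = 3) differed from the dermal mean of 58.0% ± 4.74 (SD, n = 2) by -9.91 points, with p = 0.4 by exact permutation (adjusted p = 0.56). The within-set differences were -3.24 and -2.58 points. The difference was -2.91 points without epidermal B, -15.2 without epidermal C and -6.55 without dermal B. With the D named again from germline, the TRBD1 share was 53.8% in the lymph node and 44.3%, 28.8% and 52.3% in the epidermal libraries.

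The J cluster divided the 2 D segments in every library. With TRBJ1, TRBD1 made up 91.98% of assigned lymph node clonotypes and 85.7% in WT dermis. Dermal Tcrd-/- A and B had 92.5% and 100%, CD103+ 91.7%, CD103hi 96.5%, and the epidermal libraries 97.9%, 94.3% and 100%. With TRBJ2 the TRBD1 share was 46.8% in the lymph node, 39.8% in WT dermis, 44.0% and 51.1% in dermal A and B, 45.2% in CD103+, 30.2% in CD103hi, and 37.3%, 24.2% and 44.7% in epidermal A, B and C. The lowest TRBJ1 value was above the highest TRBJ2 value. The difference averaged 54.1 percentage points (SD 9.43 over 9 libraries) and was positive in 9 of 9 libraries, with p = 0.0039 in an exact sign-flip permutation test and an adjusted p of 0.0065 over 5 within-library comparisons. That p is the smallest 9 libraries can give. The values of 100% came from 12 and 13 clonotypes, with lower Wilson bounds of 75.8% in dermal B and 77.2% in epidermal C. A TRBD2 share above 0 is thus not excluded there.

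**Figure D1:**
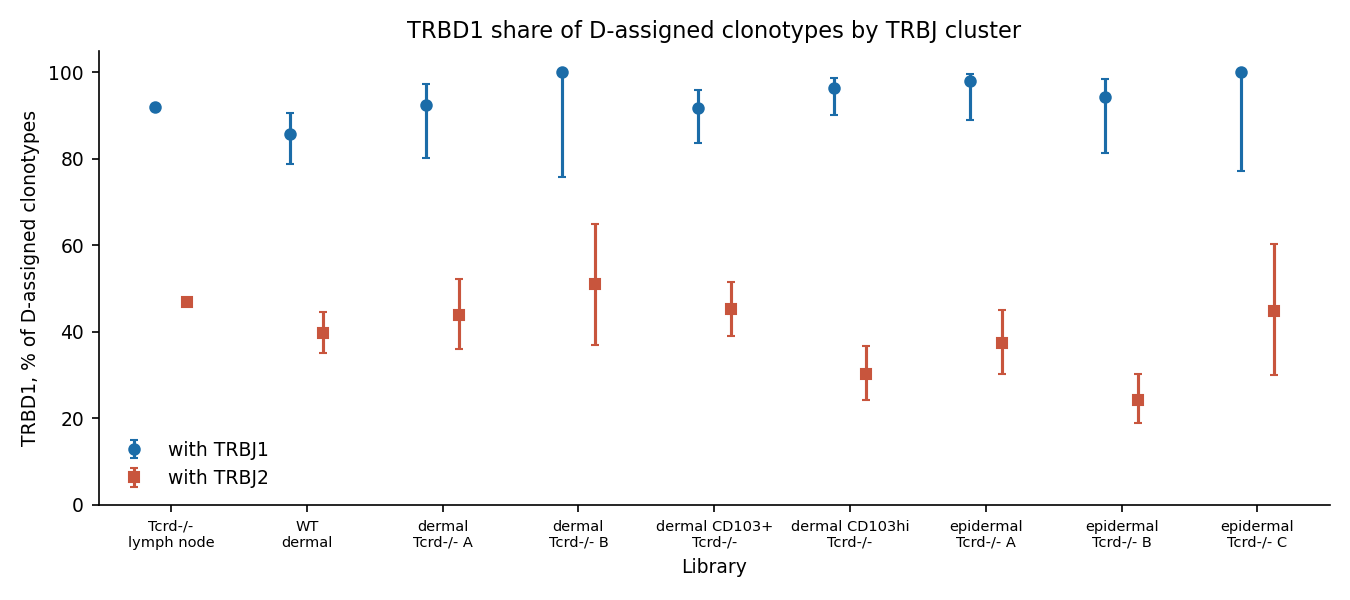
Share of D-assigned clonotypes named TRBD1 (%, vertical axis) in each of the 9 TRB libraries (horizontal axis), with TRBJ1 (circles) and with TRBJ2 (squares). Bars are 95% Wilson intervals over clonotypes. TRBJ1 values sit between 85.7% and 100%, and TRBJ2 values between 24.2% and 51.1%.

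The TRBJ2 share of TRBD1 was lowest in epidermal B (24.2%) and CD103hi (30.2%). The epidermal mean of 35.4% ± 10.4 (SD, n = 3) differed from the dermal mean of 47.5% ± 5.05 (SD, n = 2) by -12.1 points, with p = 0.4 by exact permutation (adjusted p = 0.56), and epidermal C (44.7%) overlapped the dermal values. Differences within sets were -6.63 and -6.37 points. Leaving out epidermal B gave -6.50 points, and counting CD103+ and CD103hi as dermal gave -7.20. After the D was named again, the TRBJ2 share was 40.5% in the lymph node and 19.7% in epidermal B.

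Single J segments followed their cluster in the lymph node, where the TRBJ1 segments with at least 20 assigned clonotypes ranged from 89.8% (TRBJ1-2) to 93.4% (TRBJ1-4) TRBD1. The TRBJ2 segments ranged from 43.5% (TRBJ2-3) to 55.0% (TRBJ2-2). Some skin libraries departed from that range. TRBJ2-2 was joined to TRBD1 in 95.7% of 23 assigned CD103+ clonotypes (interval 79.0 to 99.2). TRBJ2-1 was joined to TRBD1 in 8.20% of 61 assigned epidermal B clonotypes (interval 3.55 to 17.8), against 48.2% in the lymph node and 38.3% in epidermal A. These segments were singled out after their values had been seen.

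TRBD2 with TRBJ1 was a small class of 430 clonotypes, and its D stretches differed in kind from those with TRBJ2. They averaged 6.99 bases against 9.14 bases for the 8152 TRBD2 clonotypes with TRBJ2. The bases actg, which occur in germline TRBD2 and not in TRBD1, were found in 2.56% of the TRBJ1 class and 52.3% of the TRBJ2 class. The shorter ct, absent from TRBD1 on the same strand, was found in 16.7% and 75.6%. A stretch of only g and c bases made up 41.9% against 12.2%, and a match only to the reverse complement 11.6% against 0.957%. The most frequent stretches of the TRBJ1 class were gggggg (51 clonotypes), tgggg (48) and ggggggg (37). Clonotypes of 1 read made up 52.3% and 51.4% of the classes. Whether another segment or added bases gave those stretches was not tested.

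More bases of TRBD2 than of TRBD1 were kept in every library. TRBD1 kept a mean of 7.43 bases in the lymph node, 7.40 in WT dermis, 7.51 and 7.74 in dermal Tcrd-/- A and B, 7.49 in CD103+, 7.48 in CD103hi, and 7.29, 7.35 and 7.43 in epidermal A, B and C. TRBD2 kept 9.003 in the lymph node, 9.57 in WT dermis, 9.62 and 9.64 in dermal A and B, 8.82 in CD103+, 9.06 in CD103hi, and 8.77, 9.52 and 9.05 in the epidermal libraries. The ranges did not overlap. The difference averaged 1.77 bases (SD 0.325 over 9 libraries), was positive in 9 of 9 and had an adjusted p of 0.0065 in the exact sign-flip permutation test. TRBD2 has 2 more germline bases, and the stretches that fitted both segments, all of 5 or 6 bases, were counted as TRBD1.

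**Figure D2:**
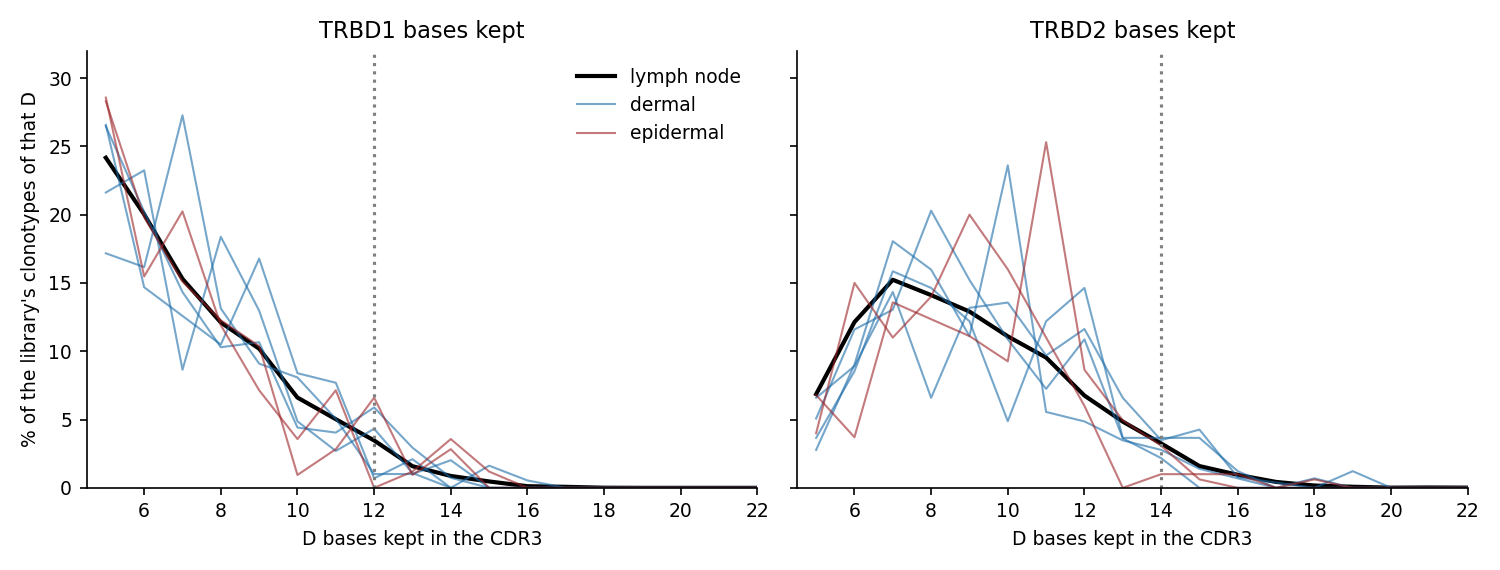
Distribution of D bases kept (bases, horizontal axis) as a share of the library's clonotypes of that D (%, vertical axis), for TRBD1 (left) and TRBD2 (right). Each line is 1 library with at least 50 clonotypes of each D, which leaves out dermal Tcrd-/- B and epidermal C, and the dotted line marks the germline length of 12 or 14 bases. TRBD1 falls from a mode of 5 bases in the lymph node (24.2%), and TRBD2 peaks at 7 bases there.

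The shortest listed size held 24.2% of TRBD1 and 6.86% of TRBD2 clonotypes in the lymph node, so the TRBD1 distribution is cut at its mode. A length of 11 bases was kept by 50% of dermal B TRBD2 clonotypes (11 of 22) and 25.3% of epidermal B ones (41 of 162), against 4.76% to 12.2% in the other libraries. Over both segments, the epidermal mean of bases kept was 8.30 ± 0.422 (SD, n = 3) and the dermal mean 8.47 ± 0.00678 (SD, n = 2). The difference of -0.173 bases had p = 0.6 by exact permutation (adjusted p = 0.6) and changed sign when bases past a germline end were left out (0.0122). Leaving out epidermal A, B or C in turn gave -0.0296, -0.415 and -0.0738 bases, and counting CD103+ and CD103hi as dermal gave -0.0219.

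Trimming could be placed for the 93.2% of assigned clonotypes whose longest germline match had a unique position. The lymph node had lost a mean of 2.51 bases from the 5′ end of the D, the side that joins V, and 2.74 from the 3′ end, the side that joins J. Across libraries the loss ranged from 1.80 to 3.04 bases at the 5′ end and from 1.91 to 2.82 at the 3′ end. The 5′ minus 3′ difference averaged 0.0462 bases (SD 0.619 over 9 libraries) with an adjusted p of 0.926 in the exact sign-flip permutation test, and its sign depended on single libraries. It was -1.02 in dermal B, 0.814 in epidermal B and 1.13 in epidermal C. This difference pools 2 segments that mostly went opposite ways. In the lymph node TRBD1 lost 2.24 bases at the 5′ end and 2.85 at the 3′ end, and TRBD2 2.90 and 2.58. TRBD1 lost more at the 3′ end except in epidermal B (3.17 and 1.86) and epidermal C (2.57 and 2.32). TRBD2 lost more at the 5′ end except in dermal B (1.86 and 2.86). The losses of each D were not tested. Among placed lymph node TRBD1 clonotypes 32.7% kept the 5′ end intact and 14.4% the 3′ end. For TRBD2 these shares were 18.9% and 19.6%.

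Mean insertions at both D borders were lowest in epidermal B and CD103hi. At the V-D border the mean was 1.17 inserted bases in the lymph node, 1.08 in WT dermis, 1.55 and 0.895 in dermal Tcrd-/- A and B, 0.938 in CD103+, 0.557 in CD103hi, and 1.17, 0.545 and 0.765 in epidermal A, B and C. At the D-J border it was 1.24 in the lymph node, 1.20 in WT dermis, 1.90 and 1.26 in dermal A and B, 1.04 in CD103+, 0.491 in CD103hi, and 1.01, 0.370 and 0.765 in the epidermal libraries. Epidermal and dermal values overlapped at the V-D border and did not overlap at the D-J border. The D-J means were 0.715 ± 0.323 (SD, n = 3) and 1.58 ± 0.447 (SD, n = 2), a difference of -0.864 bases with p = 0.2 by exact permutation (adjusted p = 0.56). It was -0.548 without dermal A and -0.457 when CD103+ and CD103hi were counted as dermal. The V-D difference was -0.396 bases with p = 0.4 (exact permutation, adjusted p = 0.56). It was -0.0699 without dermal A, -0.722 without dermal B, -0.256 when epidermal B was left out and -0.159 when those sorts were counted as dermal. Within sets the D-J differences were -0.885 and -0.499 bases and the V-D differences -0.382 and -0.130.

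The mean hides a split between junctions with no inserted base and a tail of long ones. No base was inserted at the V-D border in 43.5% of assigned lymph node clonotypes, 48.1% in WT dermis, 42.5% and 47.4% in dermal A and B, 56.0% in CD103+, 70.0% in CD103hi, and 69.4%, 77.6% and 60.8% in epidermal A, B and C. At the D-J border the shares were 42.5% in the lymph node, 45.8% in WT dermis, 40.9% and 36.8% in dermal A and B, 59.8% in CD103+, 71.1% in CD103hi, and 71.8%, 84.1% and 66.7% in the epidermal libraries. Over both D segments, all epidermal values lay above both bulk dermal values at each border. For TRBD1 alone this did not hold at the V-D border. There dermal B had 65.7% of 35 TRBD1 clonotypes, and epidermal A, B and C had 61.3%, 76.2% and 56.7%. TRBD2 in dermal B had 18.2% of 22 clonotypes. Both borders lacked insertions in 18.6% of lymph node, 37.2% of CD103+, 53.7% of CD103hi and 56.8%, 69.1% and 47.1% of epidermal A, B and C clonotypes. In epidermal A the mean (1.17 bases at the V-D border) was as high as in the lymph node although 69.4% of its junctions had no insertion, and its longest V-D insertion had 19 bases. The sum of inserted bases in these libraries was known before this count, so it is not independent support.

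**Figure D3:**
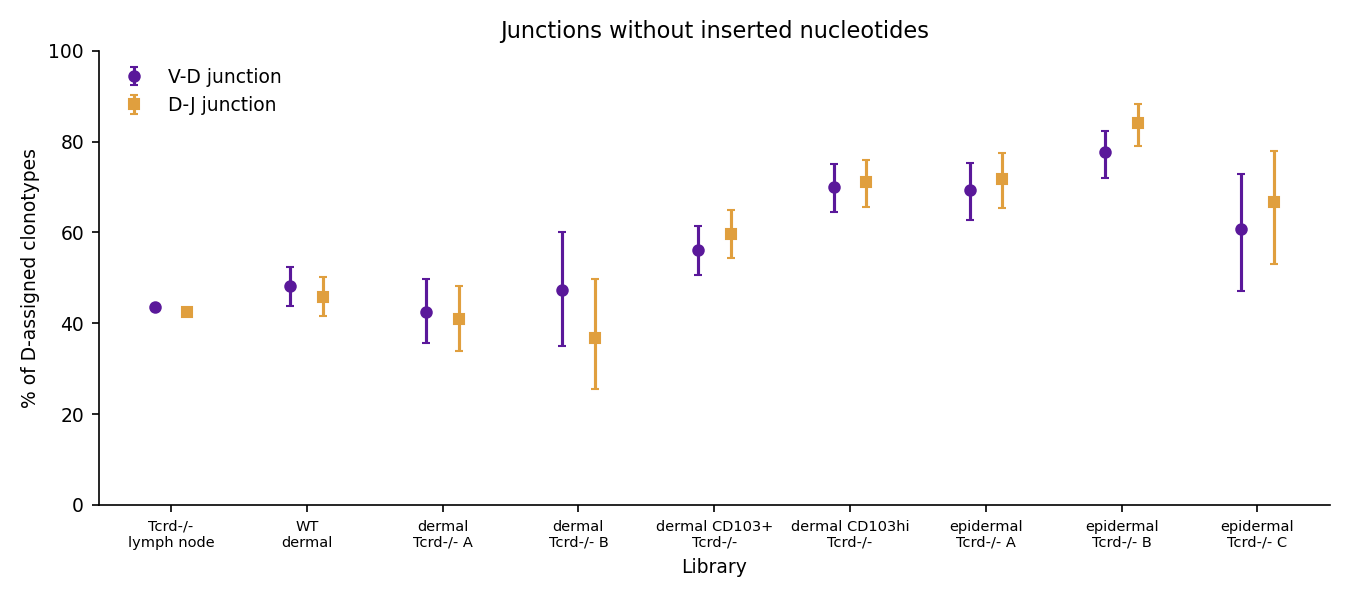
Share of D-assigned clonotypes with no inserted base (%, vertical axis) at the V-D border (circles) and the D-J border (squares) in each TRB library (horizontal axis). Bars are 95% Wilson intervals over clonotypes. The CD103hi and epidermal libraries sit between 60.8% and 84.1%, above the lymph node, WT dermal and bulk dermal Tcrd-/- libraries, which sit between 36.8% and 48.1%.

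Listed V and J ends also ran past their germline genes, in 10.8% and 12.8% of assigned clonotypes, so those bases were counted as segment bases. Whether they were of the palindromic kind was not tested. A second count took every base past a germline end, or outside the longest germline match of the D, as inserted. It used only clonotypes with a placed D (17301 of 18583 assigned in the lymph node). The share with no V-D insertion was then 26.0% in the lymph node and 23.7% and 40.0% in dermal A and B. It was 51.2% in CD103hi and 58.4%, 66.1% and 55.3% in the epidermal libraries. The D-J shares were 30.3%, then 27.2% and 21.8%, 60.5%, and 59.5%, 65.7% and 48.9%. The level moved, and over both D segments the epidermal libraries still lay above the bulk dermal ones at both borders. Over the 9 libraries the V-D minus D-J difference averaged -0.0665 bases (SD 0.195), negative in 5 of 9, with an adjusted p of 0.420 in the exact sign-flip permutation test.

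The reading frame of TRBD1 showed no common lead. In the lymph node frames 1, 2 and 3 held 35.8%, 32.6% and 31.6% of placed TRBD1 clonotypes. The frame 3 share of TRBD1 was 26.3% in WT dermis, 31.5% and 32.4% in dermal Tcrd-/- A and B, 21.6% in CD103+, 29.6% in CD103hi, and 22.7%, 33.8% and 17.9% in the epidermal libraries. It exceeded 33.8% in none of the 9 libraries.

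TRBD2 differed. In the lymph node its frames 1, 2 and 3 held 35.4%, 33.1% and 31.5% of 7152 placed clonotypes, as even as TRBD1. Frame 3 held 39.2% in WT dermis, 30.0% and 38.1% in dermal Tcrd-/- A and B and 35.4% in CD103+ cells. It held 67.6% in CD103hi cells (94 of 139, interval 59.5 to 74.8), 53.7% in epidermal A (51 of 95, interval 43.7 to 63.4) and 60.6% in epidermal B (97 of 160, interval 52.9 to 67.9). Epidermal C had 31.6% (6 of 19, interval 15.4 to 54.0). Frame 1 was correspondingly low in the same 3 libraries, at 11.5%, 12.6% and 14.4%. The high shares were therefore in 3 libraries of 2 library sets. With 19 placed clonotypes, the interval of epidermal C overlapped those of the bulk dermal libraries and also those of epidermal A and B. The interval of dermal B (8 of 21, 20.8 to 59.1) overlapped those of epidermal A and B too. The pattern was noticed in the values and is described without a test.

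**Figure D4:**
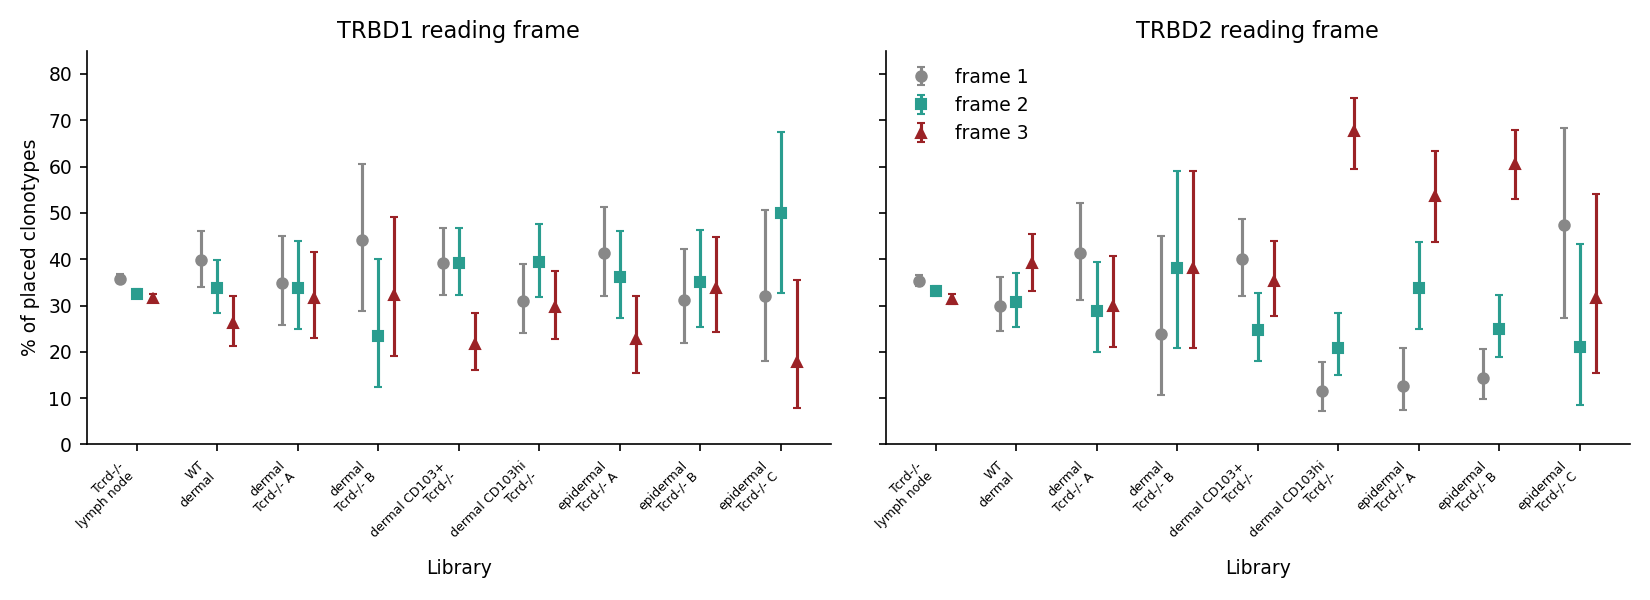
Share of placed clonotypes (%, vertical axis) with TRBD1 (left) or TRBD2 (right) read in frame 1 (circles), frame 2 (squares) or frame 3 (triangles), in each TRB library (horizontal axis). Bars are 95% Wilson intervals over clonotypes. For TRBD2, frame 3 reaches 67.6%, 53.7% and 60.6% in the CD103hi, epidermal A and epidermal B libraries and lies between 30.0% and 39.2% in the others.

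Frame 3 stayed high in these 3 libraries under other counts. With placed stretches of at least 8 bases it held 65.6%, 59.0% and 62.1% in CD103hi, epidermal A and epidermal B, and the lymph node had 31.5%. Weighted by reads it held 61.1%, 66.7% and 61.8%. Without clonotypes found in another TRB library it held 66.9%, 54.1% and 62.3%. Among clonotypes with no inserted base at either border it held 73.1%, 57.4% and 64.6% (lymph node 36.0%), and among those with an insertion 60.7%, 47.1% and 51.1% (lymph node 30.5%). The share of clonotypes without insertions was itself high in these libraries. The part of V and J composition in the frame was not tested, and the next counts only describe it.

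The frame 3 clonotypes of TRBD2 were spread over several V segments. They used 18 TRBV segments in CD103hi, 14 in epidermal A and 15 in epidermal B. The leading ones were TRBV12-2 (18 clonotypes), TRBV12-2 (9) and TRBV3 (16). Of the TRBV segments with at least 5 placed TRBD2 clonotypes, frame 3 was the most used frame in 8 of 9 in CD103hi, 3 of 5 in epidermal A and 9 of 12 in epidermal B. In the lymph node it was so in 5 of 22, in WT dermis in 5 of 15 and in CD103+ in 4 of 11. In dermal A it was so in 2 of 6, and in dermal B and epidermal C in 0 of 1 each. TRBV1 in epidermal B was an exception, with 2 of 13 clonotypes in frame 3. That count was chosen after its value was seen. Among J segments, TRBJ2-3 led the frame 3 clonotypes of CD103hi (22 of 94). TRBJ2-1 led those of epidermal A (17 of 51) and epidermal B (33 of 97), and TRBJ2-7 those of the lymph node (572 of 2251). Whether V or J use goes with the frame was not tested.

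The residues that frame 3 of TRBD2 encodes could be counted without any D call. The count uses the same CDR3s and does not correct for the TRBD2 share, so it is not separate support. The run DWG occurred in 4.30% of lymph node CDR3s, 6.98% in WT dermis, 5.53% and 5.19% in dermal Tcrd-/- A and B and 4.88% in CD103+ cells. It occurred in 14.2% of CD103hi (interval 11.3 to 17.7), 11.01% of epidermal A (8.02 to 14.9), 14.9% of epidermal B (11.9 to 18.6) and 6.94% of epidermal C (3.0 to 15.2) CDR3s. DRG, the frame 3 reading of TRBD1, occurred in 1.70% to 4.17% of clonotypes in all 9 libraries. GLG, from the frame 2 reading of TRBD2, ranged from 1.30% in dermal B to 5.53% in dermal A. It occurred in 3.20% in the lymph node, 3.06% in CD103hi, and 5.35% and 1.84% in epidermal A and B. By reads, DWG made up 24.2% of epidermal A, 14.1% of epidermal B and 10.96% of CD103hi, against 4.24% of the lymph node, but also 13.1% of dermal B, where 4 clonotypes held it.

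Over both D segments the frame 1 share was 35.6% in the lymph node, 35.0% in WT dermis, 37.8% and 36.4% in dermal A and B, 39.5% in CD103+, 21.4% in CD103hi, and 27.1%, 19.8% and 38.3% in epidermal A, B and C. The epidermal mean of 28.4% ± 9.30 (SD, n = 3) differed from the dermal mean of 37.1% ± 1.01 (SD, n = 2) by -8.67 points, with p = 0.6 by exact permutation (adjusted p = 0.6). Within sets the differences were -10.7 and 1.93 points, of opposite sign. Without epidermal B the difference was -4.39 points, without epidermal C -13.6, and with CD103+ and CD103hi counted as dermal -5.36.

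The TRBD1 share was compared across libraries with the clonotype share of each of 35 TRBV and TRBJ segments. The most alike were TRBJ1-2 (Spearman rho 0.80, Pearson r 0.76), TRBJ2-2 (rho 0.57, r 0.65) and TRBJ2-3 (rho 0.38, r 0.58), over 9 libraries that share most of their handling. These coefficients describe 9 points, and libraries with few clonotypes weigh as much as the deepest.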

How the data were processed

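Sorted cells' RNA was copied by 5′ RACE and Tcrb transcripts were amplified and sequenced on an Illumina MiSeq, per the labels' protocols. Per the file headers, the deposited tables hold 1 clonotype a line with a read count. The deposited fraction is that count over the library total. The tables also give V, D and J names and the CDR3 positions where they start or end, numbered from 0. The aligner, the caller, its segment reference and the build are not given in the sources used here. Listed V, D and J stretches never overlapped in a D-assigned clonotype.

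D bases kept were DEnd minus DStart plus 1. V-D and D-J insertions were the bases between the listed ends. Frames and losses came from the longest exact match (at least 5 bases) to GENCODE M21 germline, used where its position was unique. Library values were compared by exact permutation (3 epidermal against 2 dermal, 7 measures) and exact sign-flip permutation (9 libraries, 5 comparisons), two-sided, with Benjamini-Hochberg adjustment and a threshold of 0.05. Python 3.11.15, pandas 2.3.3, numpy 2.4.6, SciPy 1.17.1 and Matplotlib 3.10.9 were used, and the junction code was tested on simulated data. The TRG library, which has no D segment in its chain, was left out.

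The members and lists were chosen with earlier results of these data known. Named by rule were the leading complete clonotype per library, D and J cluster, and the 5 most frequent lymph node stretches per D. Also named by rule were J segments with at least 20 assigned clonotypes, and the 3 segments most like TRBD1. Of the leading clonotypes, those of the lymph node are printed. The skin sequences printed lead only among frame 3 TRBD2 clonotypes of their library, and were chosen after the values had been seen. The depth was 31823 to 189162 reads a library, and intervals cover counting error only. Alternatives covered read weighting, read minimums of 2 and 10, complete CDR3s and amino acid clonotypes. They also covered trace clonotypes (under 1% of their share in another library of the set), short D, the D call, and TRBD2 with TRBJ1 left out. The rest were leaving out each library, both CD103 sorts in the dermal group, and blocks. Counting of bases past germline ends and the frame 3 alternatives were chosen after seeing the data.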

Additional observations from a re-analysis of the deposited data

How the results depend on the processing

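The TRBD1 share by J cluster and the bases kept by D held their direction and stayed under the threshold in every alternative run. Adjusted p was from 0.0065 to 0.013 (exact sign-flip permutation). Leaving out TRBD2 with TRBJ1 was among these runs. It leaves only TRBD1 with TRBJ1, so for the share by J cluster that run could not have failed. The unassigned share was 12.05 points higher with TRBJ1 than with TRBJ2 (9 of 9 libraries, exact sign-flip permutation, adjusted p = 0.0065), and lost the call when weighted by reads (15.9 points, adjusted p = 0.085) or with at least 10 reads (7.44 points, adjusted p = 0.24). The 5′ minus 3′ loss of 0.0462 bases turned to -0.00534 at 10 reads and -0.160 with the D named again, and ranged from -0.0890 to 0.179 with each library left out, falling below 0 without epidermal B (-0.0498) or epidermal C (-0.0890). The V-D minus D-J difference turned to 0.0471 with the D named again and 0.0152 with bases past germline ends counted as inserted. The epidermal minus dermal difference in bases kept turned to 0.0175 with the D named again, 0.180 with D of at least 6 bases and 0.0122 with germline-matching bases only. The other 6 epidermal minus dermal differences kept their sign in every alternative run but not their size. Over all alternatives the D-assigned share ranged from -18.5 to -5.82 points, the TRBD1 share from -15.5 to -2.91, the TRBD1 share with TRBJ2 from -17.1 to -6.50, the frame 1 share from -18.6 to -4.39, V-D insertions from -1.02 to -0.0699 bases and D-J insertions from -1.18 to -0.457. None could pass the threshold with the libraries of these groups.

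The letters A and B are shared by epidermal and dermal libraries but nothing in the labels says that they mark a shared batch, and the set names pair epidermal C, not B, with dermal B. With the replicate block the D-assigned difference was -14.9 points, the TRBD1 share -15.2 points and D-J insertions -0.889 bases, with p = 0.5 in each (exact sign-flip permutation, the smallest p 2 pairs give). With the library set as a block they were -7.72 points, -2.91 points and -0.692 bases. Libraries of 72 and 77 clonotypes limit every value of epidermal C and dermal B. The lymph node TRBD2 frame 3 share at 10 reads (14.3%) rests on 7 clonotypes.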

Other observations

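CDR3 length followed the named D in every library. TRBD2 clonotypes had longer CDR3s than TRBD1 clonotypes, with means of 14.4 and 13.9 residues in the lymph node, 14.7 and 13.7 in WT dermis, 14.6 and 14.2 in dermal Tcrd-/- A, 15.3 and 13.6 in dermal B, 14.3 and 13.6 in CD103+, 13.9 and 13.7 in CD103hi, and 13.7 and 13.2 in epidermal A, 13.7 and 13.2 in epidermal B, and 13.7 and 13.4 in epidermal C. The TRBD2 means of the 4 epidermal and CD103hi libraries were the lowest, and no test was run.

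By reads rather than clonotypes, the D classes of the CD103hi and epidermal B libraries were led by the unassigned class, with 52.8% and 50.05% of reads. The unassigned share of reads was 31.3% in the lymph node and 17.9% and 19.3% in dermal Tcrd-/- A and B. Few large clonotypes can set such shares, and the lead was not tested.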
